A study of Homo sapiens with 24 samples.

Results

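The arrays described here number 6, with 3 from VCaP cells given small interfering RNA against ERG (siERG) and 3 from VCaP cells given a control siRNA (siControl), all with dihydrotestosterone (DHT), a natural androgen. They were chosen by their sample titles from the 24 arrays of the series. VCaP is an established human prostate cancer line in which the androgen-driven TMPRSS2 gene is fused to ERG. The rest of the series holds the same transfections of VCaP with ethanol (EtOH, the solvent) and a knockdown of ETV1 by short hairpin RNA (shETV1) in LNCaP, another prostate cancer line. The targets of both knockdowns are transcription factors of the ETS family.

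In every VCaP group RNA interference lasted 24 h, then cells spent 2 days in hormone-depleted serum and 16 h with EtOH or with 10 nM DHT. siControl with DHT, siERG with DHT, siControl with EtOH and siERG with EtOH each had 3 arrays, labelled A, B and C and described as biological replicates. All groups share 1 cell line, and the depletion step applies to controls as well as to knockdown cells. RNA was hybridised to Affymetrix HG-U133 Plus 2.0 arrays, on which a probe set is a group of short oligonucleotides read as 1 intensity.

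ETS factors bind DNA through a conserved domain that recognises a GGAA core. ERG is normally an endothelial and haematopoietic factor and is all but silent in prostate epithelium, but fusion to TMPRSS2 makes its transcription respond to androgen in tumours with the fusion. In prostate cells ERG is known to affect invasion, differentiation and androgen-regulated genes.

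Both groups carried an epithelial profile of luminal type. All 12 luminal epithelial markers on the arrays passed the intensity filter, and their summed intensity was 42990 to 46140 in siControl and 41530 to 45280 in siERG arrays with DHT. Of the other markers, 4 of 8 basal, 6 of 13 endothelial, 4 of 12 fibroblast and 3 of 10 leukocyte genes passed it. The defining endothelial genes CDH5, KDR, TEK and TIE1, the leukocyte gene PTPRC and the basal keratins KRT5 and KRT14 lay below the array median. The endothelial sum was 1781 to 1884 in siControl and 1088 to 1180 in siERG arrays, and ERG and ENG, the endoglin gene (−0.50), were the members that fell. That sum includes ERG, the target of the siRNA, which went from a mean of 1188 to 548. The leukocyte sum was 681.5 to 765.5 and 480.1 to 513.8, and LYZ, the lysozyme gene, was the 1 member that fell (408 to 192). The fibroblast sum (539.4 to 749.8 against 637.4 to 682.7) and the basal sum (1624 to 1693 against 1522 to 1685) overlapped. In bulk RNA, fewer cells of a type and less RNA per cell cannot be told apart.

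Promoter sequence is shown for genes with the largest falls, as the stretch in which an ETS core could be read, and for genes with the largest rises beside them. Of the 5 lowest and 4 highest changes these are the ones with an entry in the promoter table, and EML6 and TNFRSF12A are not shown. Each line runs from 250 bases before to 50 bases after the transcription start on the strand of the gene, from RefSeq on GRCh38.p14. Capitals mark GGAA or its reverse complement TTCC.
S100P (chr4:6693628-6693927, plus strand): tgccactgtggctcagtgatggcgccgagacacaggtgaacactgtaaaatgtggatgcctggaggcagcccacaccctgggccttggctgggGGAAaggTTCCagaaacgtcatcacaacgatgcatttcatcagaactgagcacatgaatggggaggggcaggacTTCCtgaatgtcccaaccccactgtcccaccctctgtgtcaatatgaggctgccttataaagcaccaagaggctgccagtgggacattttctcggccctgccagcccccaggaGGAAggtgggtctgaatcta
HLA-DMB (chr6:32940979-32941278, minus strand): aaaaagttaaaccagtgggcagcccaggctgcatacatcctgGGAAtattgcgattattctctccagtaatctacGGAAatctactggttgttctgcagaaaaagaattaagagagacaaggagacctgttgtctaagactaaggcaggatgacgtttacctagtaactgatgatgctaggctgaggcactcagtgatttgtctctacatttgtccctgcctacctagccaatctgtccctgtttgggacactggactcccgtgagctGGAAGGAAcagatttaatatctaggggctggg
ST6GAL1 (chr3:186930276-186930575, plus strand): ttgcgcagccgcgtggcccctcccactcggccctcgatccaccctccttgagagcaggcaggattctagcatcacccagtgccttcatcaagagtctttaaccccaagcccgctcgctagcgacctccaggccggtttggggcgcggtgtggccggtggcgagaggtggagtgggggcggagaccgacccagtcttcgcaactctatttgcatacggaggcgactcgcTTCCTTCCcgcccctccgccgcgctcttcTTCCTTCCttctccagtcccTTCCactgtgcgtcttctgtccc
RGS17 (chr6:153131233-153131532, minus strand): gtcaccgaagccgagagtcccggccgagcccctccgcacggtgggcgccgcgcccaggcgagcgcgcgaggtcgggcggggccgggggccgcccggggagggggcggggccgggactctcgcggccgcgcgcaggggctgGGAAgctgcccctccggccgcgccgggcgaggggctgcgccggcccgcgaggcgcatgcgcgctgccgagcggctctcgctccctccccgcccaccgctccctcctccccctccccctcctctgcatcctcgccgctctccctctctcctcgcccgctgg
C5orf46 (chr5:147906489-147906788, minus strand): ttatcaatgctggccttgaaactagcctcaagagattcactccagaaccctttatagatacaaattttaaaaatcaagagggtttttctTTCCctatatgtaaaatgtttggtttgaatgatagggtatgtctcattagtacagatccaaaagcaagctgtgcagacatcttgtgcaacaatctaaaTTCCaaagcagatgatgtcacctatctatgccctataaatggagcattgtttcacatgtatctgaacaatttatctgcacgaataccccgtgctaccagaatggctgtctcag
CD74 (chr5:150412861-150413160, minus strand): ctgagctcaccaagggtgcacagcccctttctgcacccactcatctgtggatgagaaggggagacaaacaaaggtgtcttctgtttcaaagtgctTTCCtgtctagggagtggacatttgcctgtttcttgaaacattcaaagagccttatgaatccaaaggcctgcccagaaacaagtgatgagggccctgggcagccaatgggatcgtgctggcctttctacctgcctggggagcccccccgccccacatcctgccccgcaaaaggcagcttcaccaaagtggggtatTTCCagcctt
REEP2 (chr5:138438807-138439106, plus strand): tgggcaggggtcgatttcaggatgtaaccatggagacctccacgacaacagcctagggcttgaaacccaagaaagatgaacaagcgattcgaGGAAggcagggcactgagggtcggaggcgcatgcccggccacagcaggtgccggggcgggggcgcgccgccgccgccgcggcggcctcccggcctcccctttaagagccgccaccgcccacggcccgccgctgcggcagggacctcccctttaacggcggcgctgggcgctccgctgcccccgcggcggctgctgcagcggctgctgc

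The first 4 belong to genes that fell and hold 4, 4, 5 and 1 GGAA matches, with both strands searched and overlaps allowed. The last 3 belong to genes that rose and hold 2, 2 and 1. A match on either strand was found in 95.8% of 545 promoters of genes that fell, 93.5% of 402 promoters of genes that rose, 95.1% of the 10427 matched promoters of all genes tested and 95.5% of all 35116 in the table. The longer ETS motif CCGGAA, which contains GGAA, was in 20% of promoters of genes that fell, 17.9% of those that rose, 29.2% of those of all genes tested and 17.2% of the whole table. None of the 7 promoters printed here holds CCGGAA. These shares describe letters in a window of 300 bases at 1 start per gene.

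The target was lower in every siERG array. On the brightest probe set ERG read 1204, 1160 and 1202 in siControl arrays A, B and C and 541, 569 and 536 in siERG arrays. The log2 change, siERG minus siControl, was −1.09 ± 0.056 (standard error, adjusted p = 2.22e-06), which is 2.13-fold on the scale of log2(intensity + 16) used for every change below. The other ERG probe sets went from a mean of 773 to 328, from 196 to 85.9 and from 69.3 to 30.2. On all 4 probe sets each siERG array was below each siControl array, and the fall was 53.9% to 57.6% of the control mean. ERG transcript was thus lowered by about the same share on bright and dim probe sets, and a large part remained.

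**Figure D1:**
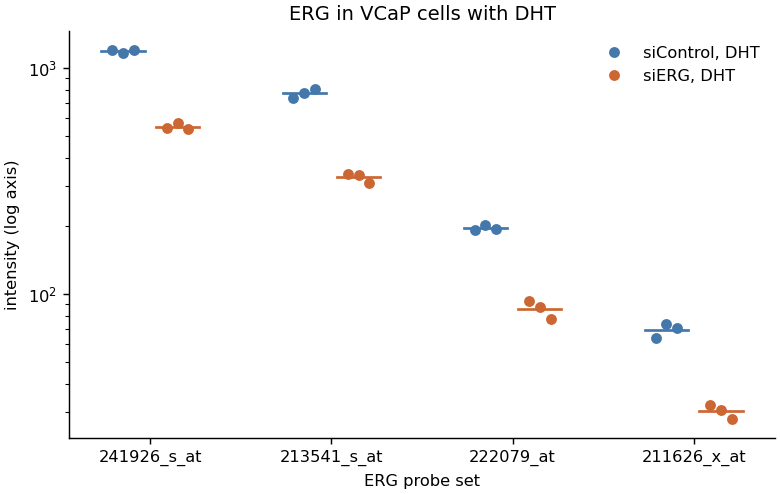
Intensity (log axis) of the 4 ERG probe sets in the 3 siControl (blue) and 3 siERG (orange) VCaP arrays with DHT, with a bar at each group mean. On every probe set the siERG arrays lie below the siControl arrays, with means of 1188 against 548 on the brightest.

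Of 12840 genes tested, 487 rose and 665 fell after siERG with DHT at an adjusted p below 0.05 (limma, Benjamini-Hochberg over all genes tested). These are 3.79% and 5.18% of the genes tested, and 2925 genes had an unadjusted p below 0.05. Large changes were mostly falls. A change of at least 2-fold was found for 32 genes that fell and 1 that rose, and a change of at least 1.5-fold for 127 that fell and 24 that rose. The median log2 change was 0.295 (1.23-fold) among genes that rose and −0.35 (1.27-fold) among genes that fell, beside 0.015 over all genes tested. The 3 siERG and 3 siControl arrays did not overlap for 24.9% of all genes tested, so separation of the arrays alone marks far more genes than the threshold does. It held for 487 of the 487 genes that rose and 664 of the 665 that fell.

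The counts moved with single arrays. Leaving out siERG DHT array C gave 922 risen and 656 fallen genes, and leaving out array B gave 230 and 491. Without siERG DHT array A the counts were 295 and 600, and without siControl DHT arrays A, B and C they were 285 and 479, 292 and 526, and 278 and 409. Signs of RNA quality also moved with the groups. The 3' to 5' intensity ratio of ACTB was 3.50 ± 0.0571 (SD, n = 3) in siControl and 2.84 ± 0.308 in siERG arrays, and that of GAPDH was 1.07 ± 0.00805 and 1.03 ± 0.00728. Both gave an exact permutation p of 0.1, the smallest that 3 against 3 arrays allow. With the GAPDH ratio as a covariate 66 genes rose and 220 fell, of which 53 and 212 were among the genes above, and with the ACTB ratio 345 rose and 287 fell. The median standard error was then 1.56 and 1.32 times that of the main fit. The part of RNA quality in these changes was not tested.

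**Figure D2:**
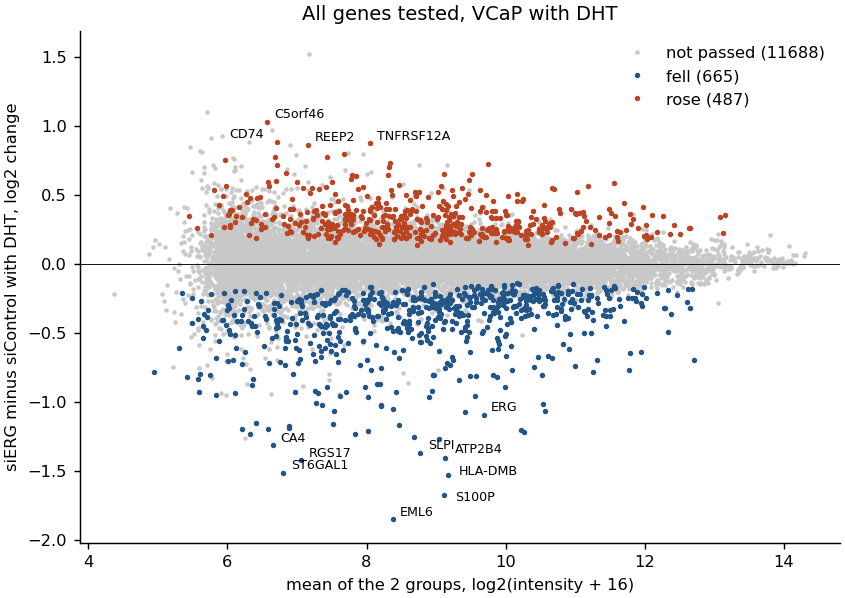
Log2 change, siERG minus siControl with DHT, against the mean log2(intensity + 16) of both groups for all 12840 genes tested, with 665 genes that fell in blue, 487 that rose in orange and the rest in grey. Falls reach −1.85 for EML6, while the highest change that passed is 1.03 for C5orf46.

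Probe sets of 1 gene mostly moved together. Of 29376 probe sets tested one by one, 815 rose and 1116 fell. Genes that rose had 439 further tested probe sets, of which 402 (91.6%) had the same sign, and genes that fell had 550, of which 497 (90.4%) did. No further probe set passed in the opposite direction under limma, while 147 and 194 passed in the same one.

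EML6 and S100P had the largest falls, and they are genes of different kinds. EML6 encodes a microtubule-associated protein of the EMAP family, and it read 607, 565 and 667 in siControl arrays and 138, 162 and 177 in siERG arrays. Every siERG array was far below every control, a 3.60-fold fall (log2 change −1.85 ± 0.105, adjusted p = 3.36e-06). The other EML6 probe set was dimmer and fell by less (93.5 to 49.8, log2 change −0.75). S100P, a small calcium-binding protein found in many carcinomas, read 1052, 804 and 1086 in siControl arrays and 314, 309 and 261 in siERG arrays. Array B was the lowest of the controls, and it was still above all siERG arrays (−1.68 ± 0.108, adjusted p = 7.91e-06).

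HLA-DMB, a chain of the HLA-DM protein that loads peptides onto class II molecules, was among the most evenly measured falls. Its intensities were 940, 938 and 1007 in siControl arrays and 354, 316 and 299 in siERG arrays (−1.53 ± 0.064, adjusted p = 5.88e-07). The groups were wide apart and each was tight. RGS17, a regulator that ends G-protein signals, read 209, 204 and 195 in siControl arrays and 72.5, 66.2 and 58.4 in siERG arrays (−1.42 ± 0.059, adjusted p = 5.88e-07). ATP2B4, a plasma membrane calcium pump, read 793, 935 and 925 and then 326, 251 and 409 (−1.41 ± 0.142, adjusted p = 1.59e-04). Its siERG arrays varied more among themselves, and all stayed well below the controls. Both other ATP2B4 probe sets also fell (−1.30 and −0.63).

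Sialyltransferases, which cap glycans with sialic acid, held 2 of the 15 largest falls. ST6GAL1, which adds sialic acid in α2,6 linkage, read 168, 178 and 173 in siControl arrays and 47.1, 52.3 and 51.3 in siERG arrays (−1.51 ± 0.049, adjusted p = 1.62e-07). ST3GAL1, which sialylates O-glycans, was the brighter gene, at 1823, 1621 and 1926 and then 757, 866 and 682 (−1.21 ± 0.101, adjusted p = 4.84e-05). The remaining ST3GAL1 probe sets fell as well (−1.10 and −0.97). ST6GALNAC1, which makes the sialyl-Tn structure, fell by 0.35 (701 to 546, adjusted p = 0.00485). In all 3 of 12 tested sialyltransferases fell (25%), none rose, and the median change was −0.20. Over all genes tested 5.18% fell and 3.79% rose. Among 21 other glycosyltransferases 5 fell and 3 rose. GALNT7 (−0.51) and GCNT2 (−0.47), which start and branch glycans, were lower, and GALNT2 (0.34), C1GALT1 (0.23) and GALNT1 (0.23), enzymes that start or extend O-glycans, were higher. B3GNT5 fell by 0.46 on the probe set used, a call lost with averaged probe sets, in 1 fit of all 24 arrays and where probe sets ending in _x_at or _s_at were left out.

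SLPI, the secretory leukocyte protease inhibitor, read 730, 618 and 716 in siControl arrays and 255, 264 and 250 in siERG arrays (−1.37 ± 0.082, adjusted p = 4.77e-06). TFF1, a trefoil peptide of mucus, read 351.1, 275.4 and 376.0 and then 145, 144 and 110 (−1.23 ± 0.118, adjusted p = 1.22e-04). REG4, a secreted lectin-like protein, read 2244, 1489 and 1895 and then 806, 804 and 752 (−1.22 ± 0.118, adjusted p = 1.31e-04). For all 3 genes array B was the lowest control. The dimmest REG4 probe set went from 325 to 59.3 (−2.17). Of a list of 24 luminal secretory and surface genes tested 7 fell, TFF1 among them, and 2 rose, with a median of −0.22. That is 37.5% called, beside 5.18% fallen and 3.79% risen over all genes tested. SLPI and REG4 are not on that list. The tetraspanin TSPAN1 (1036 to 529, −0.95), the surface antigen PSCA (63.1 to 24.9, −0.95) and TSPAN8 (1956 to 1223, −0.67) were among those that fell, while AZGP1, a secreted glycoprotein, rose by 0.42 and RAB27A, which docks secretory vesicles, by 0.23. The secreted products TFF3, AGR2, AGR3, MSMB, LTF and ACP3 did not pass.

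LPL, lipoprotein lipase, read 858, 743 and 813 in siControl arrays and 342, 344 and 290 in siERG arrays (−1.27 ± 0.096, adjusted p = 2.50e-05). CA4, a membrane-bound carbonic anhydrase, went from a mean of 142 to 48.0 (−1.31, adjusted p = 2.75e-05), and its other probe set fell with it (−1.04). GDA, guanine deaminase, went from 615 to 249 (−1.25, adjusted p = 2.22e-06), whereas a dim GDA probe set did not pass (57.9 to 45.5, −0.27). PGCKA1 went from 107 to 36.2 (−1.23, adjusted p = 1.55e-06). Lack of overlap between the groups was a condition for naming these 4 genes.

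INSM1, a zinc-finger factor of neuroendocrine cells, read 358, 400 and 379 in siControl arrays and 152, 150 and 161 in siERG arrays (−1.21 ± 0.078, adjusted p = 7.52e-06). The siERG arrays were close to one another and lay below all controls. Of 13 neuroendocrine genes tested 4 fell (30.8%, beside 5.18% over all genes tested) and none rose, with a median of −0.10. The other members that fell were SCGN, secretagogin, a calcium sensor (1275 to 799, −0.67), DDC, the decarboxylase that makes dopamine and serotonin (4921 to 3157, −0.64), and the homeodomain factor NKX2-2 (124 to 75.8, −0.61). The other 9 members did not pass.

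**Figure D3:**
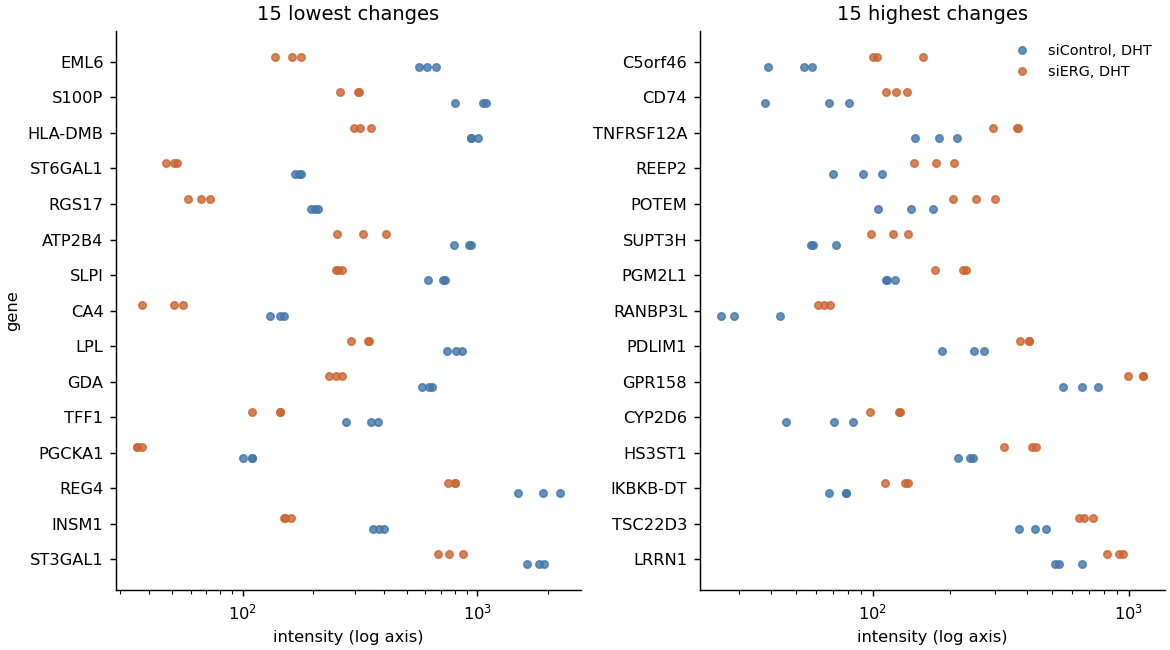
Intensity (log axis) in each of the 3 siControl (blue) and 3 siERG (orange) VCaP arrays with DHT for the 15 genes with the lowest and the 15 with the highest log2 changes among those that passed without overlap. The distance between groups is wider on the left, where EML6 goes from 565 to 667 down to 138 to 177, than on the right, where C5orf46 goes from 39.0 to 57.8 up to 101 to 157.

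Genes that rose changed by less and were measured less firmly. C5orf46, which encodes a small secreted peptide, was the 1 gene that rose at least 2-fold and is dim, at 57.8, 54.0 and 39.0 in siControl arrays and 157, 101 and 104 in siERG arrays (1.03 ± 0.191, adjusted p = 0.0074). TNFRSF12A, the receptor of the cytokine TWEAK, read 182, 146 and 214 and then 365, 368 and 294 (0.87 ± 0.164, adjusted p = 0.00809). HS3ST1, which sulfates heparan sulfate, read 246, 240 and 216 and then 325, 419 and 435 (0.70 ± 0.10, adjusted p = 0.00149). In each of these the lowest siERG array was above the highest control, which was a condition for naming them. The standard error was larger against the change for C5orf46 and TNFRSF12A than for HS3ST1. Of the 15 largest rises, HS3ST1 alone passed in all of its 26 alternatives, and 14 of the 15 were lost with the GAPDH ratio as a covariate and 7 with the ACTB ratio. Those 2 fits had larger standard errors, with medians 1.56 and 1.32 times that of the main fit. All 15 rises kept a positive estimate in both, and that of POTEM went from 0.80 to 1.19 with the GAPDH ratio. All 15 of the largest falls passed with either ratio, and 14 of 15 in every alternative in which they were tested. GDA was the exception because its brighter probe set ends in _s_at. LPL, INSM1 and ST6GAL1 had 26 alternatives, beside 27 for the other falls, since they were not tested in every setting. Every HS3ST1 and LPL probe set ends in _s_at or _x_at, so neither gene was tested without such probe sets.

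Other rises among the 15 largest included genes of the cytoskeleton, receptors and signalling. PDLIM1, an adaptor of actin filaments, read 272, 250 and 187 in siControl arrays and 376, 408 and 408 in siERG arrays (0.73 ± 0.106, adjusted p = 0.0018). GPR158, an orphan receptor, went from 556 to 761 up to 993 to 1142 (0.73), and LRRN1, a neuronal leucine-rich repeat protein, from 514 to 657 up to 825 to 951 (0.65). REEP2, an endoplasmic reticulum shaping protein (0.86), SUPT3H, a SAGA complex subunit (0.77), RANBP3L (0.75) and IKBKB-DT (0.66) also rose. Their means ran from 32.5 (RANBP3L) to 90.1 (REEP2) in siControl and from 64.7 to 176 in siERG arrays. PGM2L1 rose by 0.77, and a dimmer probe set rose with it (0.61). Another tested PGM2L1 probe set went the other way (72.0 to 56.0, −0.29) and a further one the same way (64.4 to 89.2, 0.40). Neither of these passed, and in both the arrays did not overlap. TSC22D3, a glucocorticoid-induced leucine zipper protein, rose by 0.65 on its brightest probe set and by 0.17, without passing, on another. A dim TSC22D3 probe set below the filter read −0.15. CD74, the class II invariant chain, rose by 0.88 on the brightest of its probe sets, while 2 dimmer CD74 probe sets below the filter read −0.27 and −0.12. The first of these dimmer CD74 probe sets went the other way without overlap of arrays (40.6 to 31.1). POTEM (0.80) and CYP2D6 (0.71) have close relatives whose transcripts the probes may also bind. Another CYP2D6 probe set, below the filter, went the other way without overlap of arrays (18.0 to 9.15, −0.42).

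LINC00839 had a larger estimate than any gene that passed, 1.51 ± 0.488, with an adjusted p of 0.0864. It is named because it stands out in the plot of change against level, and it was chosen after its values were seen. Its siControl arrays read 75.8, 47.1 and 83.6 and its siERG arrays 267, 153 and 266, so the groups did not overlap but the standard error over the 12 arrays was large.

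Genes known as higher in prostate tumours with an ERG fusion had the highest share of fallen members among the 37 lists. Of 23 tested 12 fell, 1 rose and 10 did not pass, and the median was −0.26, beside 5.18% fallen and a median of 0.015 over all genes tested. The list was written with earlier results of these arrays known and is not independent evidence of its direction. KCNS3, a subunit of potassium channels, went from 369, 366 and 370 to 191, 194 and 199 (−0.87 ± 0.034, adjusted p = 5.88e-07), with groups that were each tight. PLA1A, a phospholipase, went from 2295, 2028 and 2245 to 1046, 1047 and 1017 (−1.06, adjusted p = 3.12e-06). Neither gene had overlapping arrays, which held for 664 of the 665 genes that fell. FZD4, a Wnt receptor (2082 to 1032, −1.01), ARHGDIB (738 to 439, −0.73), KCNH8, a potassium channel (311 to 186, −0.70), SOX9 (−0.45) and the deacetylase HDAC1 (−0.38) also fell. LEF1, a Wnt transcription factor, rose by 0.27.

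ETS factors other than the target mostly did not pass. Of the list with ERG itself counted, 25% was called, beside 3.79% risen and 5.18% fallen over all genes tested. Of 20 tested, ERG, SPDEF (−0.29), ETV6 (−0.38) and ELK3 (−0.44) fell, ELF5 rose (0.23), and the median was 0.02. TMPRSS2, the fusion partner, read 2778, 2810 and 2916 in siControl arrays and 3060, 2986 and 2662 in siERG arrays (0.03, adjusted p = 0.819). Its arrays overlapped, and the change did not pass in any alternative. KLK3, which encodes prostate-specific antigen, read 4921, 4563 and 4869 and then 5085, 4492 and 4359 (−0.04, adjusted p = 0.731), also overlapping.

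Androgen-regulated genes moved in both directions. Of 34 androgen-induced genes 4 rose, 2 fell and 28 did not pass, with a median of 0.002, so that 17.6% were called in either direction. MAF, a bZIP factor, rose from 1327 to 1949 (0.55, adjusted p = 7.30e-05) and ADAMTS1, a secreted protease, from 2456 to 3670 (0.58). STEAP4, a metalloreductase, fell from 626 to 463 (−0.42) and PTGER4, a prostaglandin receptor, by 0.21. Of 19 androgen-repressed genes 4 rose and 3 fell (36.8% called), with a median of 0.09, beside 3.79% risen and 5.18% fallen over all genes tested. ACKR3, a chemokine receptor, rose by 0.26, while WNT2 fell by 0.48. Among 22 lineage factors and coregulators, NR3C2, the mineralocorticoid receptor (216 to 289, 0.39, adjusted p = 1.59e-04), and NR3C1, the glucocorticoid receptor (240 to 286, 0.24), rose, and SOX9 and GATA3 (−0.40) fell.

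Steroid-metabolising enzymes of the AKR1C family fell together. AKR1C1 went from 655 to 326 (−0.97), AKR1C2 from 666 to 342 (−0.92) and AKR1C3, which makes testosterone from androstenedione, from 742 to 458 (−0.68). Their sequences are alike, and the AKR1C1 and AKR1C2 probe sets end in _x_at, so the 3 values may share transcripts. Of 24 genes of steroid metabolism 4 fell, including SULT1A1 (−0.22), and none rose. That is 16.7%, beside 5.18% fallen over all genes tested.

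Cholesterol synthesis was the list with the highest share of rises. Of 20 tested 7 rose and none fell, and the median was 0.19, beside 3.79% risen over all genes tested. DHCR7, the last enzyme of cholesterol synthesis, rose from 1356 to 1978 (0.54, adjusted p = 3.69e-04), SQLE, squalene epoxidase, from 3891 to 4985 (0.35) and ACAT2 from 1317 to 1669 (0.34). NSDHL (0.33), EBP (0.31), MSMO1 (0.22) and HSD17B7 (0.16) made up the rest. Only DHCR7 among DHCR7, SQLE and ACAT2 passed with the GAPDH ratio as a covariate. In fatty acid synthesis SCD, stearoyl-CoA desaturase, rose from 8075 to 10320 (0.35) and ELOVL4, an elongase, fell by 0.37, with 3 of 22 risen and 1 fallen.

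**Figure D4:**
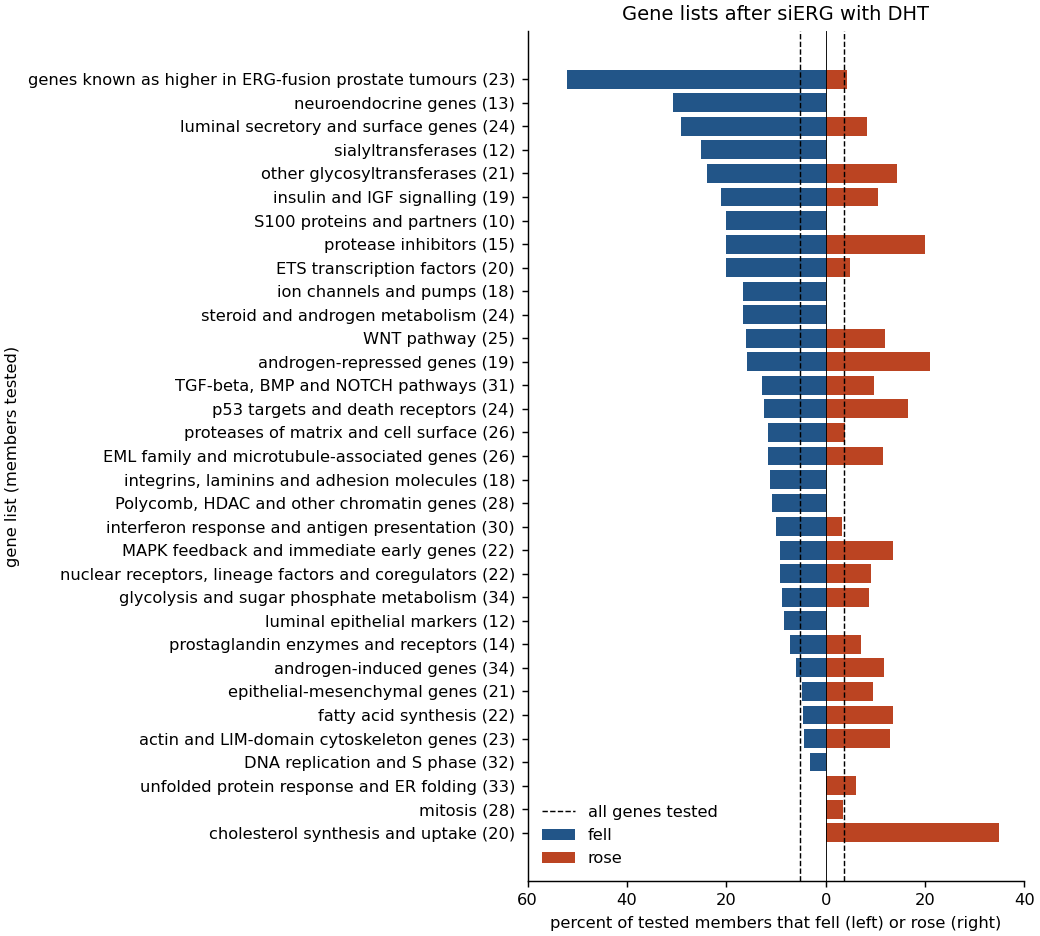
Percent of the tested members of each gene list with 10 or more tested that fell (blue, left) or rose (orange, right) after siERG with DHT, with the number tested in brackets and dashed lines at 5.18% fallen and 3.79% risen over all genes tested. Genes known as higher in ERG-fusion tumours have the longest bar to the left, 12 of 23, and cholesterol synthesis the longest to the right, 7 of 20.

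Genes of invasion moved in both directions. The share called ran from 11.1% of adhesion molecules to 40% of protease inhibitors, beside 3.79% risen and 5.18% fallen over all genes tested. Among 26 proteases MMP10 (78.7 to 41.6, −0.72), MMP1 (55.9 to 29.4, −0.68) and ADAM10 (−0.24) fell and ADAMTS1 rose. Both matrix metalloproteinases were dim, near the level at which the added 16 units matter. Among 15 protease inhibitors SLPI, SPINK1 (−0.51) and CSTA (−0.27) fell and SERPINH1 (0.42), SERPINE2 (0.32) and SERPINI1 (0.29) rose. SNAI2, a repressor of epithelial adhesion genes, rose from 238 to 380 (0.65, adjusted p = 0.00203), as did the desmosome gene DSP (0.29), and occludin (OCLN) fell by 0.34. The other 18 of 21 epithelial-mesenchymal genes did not pass. ITGA6 (−0.41) and ITGB5 (−0.31) were the members that fell, of 18 integrins, laminins and other adhesion molecules. S100A6 (441 to 279, −0.63) and S100P fell and none rose in a list of S100 proteins and their partners, of which 10 were tested.

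Actin and microtubule genes were mixed, with 17.4% and 23.1% called, beside 3.79% risen and 5.18% fallen over all genes tested. CALD1, caldesmon, rose from 5849 to 6995 (0.26) and TAGLN2, transgelin 2, by 0.40, while CNN3, calponin 3, fell from 1204 to 834 (−0.52, adjusted p = 1.54e-04). Of 23 actin and LIM-domain genes 3 rose and 1 fell. TUBA1A (0.33), MAP2 (0.35) and TUBB6 (0.35) rose among 26 microtubule genes, in which EML6, EML1 (−0.19) and DCLK1 (−0.44) fell.

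Signalling lists each held a few genes on both sides. Their share called ran from 22.6% to 31.6%, beside 3.79% risen and 5.18% fallen over all genes tested. In the WNT pathway, WNT5A rose from 188 to 284 (0.56) and FZD5 by 0.22, and FZD4, WNT2, LRP6 (−0.23) and the receptor kinase ROR1 fell, of 25. In TGF-beta, BMP and NOTCH signalling TGFB2 rose from 68.4 to 112 (0.60) and TGFBR3 by 0.32, while the NOTCH ligands DLL1 (−0.41) and JAG1 (−0.21) and the NOTCH feedback gene NRARP (−0.18) fell, of 31. Insulin and IGF signalling had 4 falls and 2 rises in 19, with PIK3R1 (0.42) and IRS1 (0.40) higher and FOXO1 (−0.49), PIK3R3 (−0.39) and IGFBP3 (−0.33) lower. JUN rose from 1723 to 2471 (0.52), ATF3 from 426 to 638 (0.56) and EGR1 by 0.29, all immediate early genes, and the feedback genes DUSP4 (−0.73) and SPRY1 (−0.24) fell, of 22. No list here had more than 4 members that moved in 1 direction.

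Death receptors and p53 targets were likewise split, with 4 rises and 3 falls in 24. That is 29.2% called, beside 3.79% risen and 5.18% fallen over all genes tested. FAS, a death receptor, went from 469 to 318 (−0.54, adjusted p = 2.50e-05) and TP53INP1 fell by 0.31. TNFRSF19 rose from 641 to 936 (0.53), PMAIP1, which encodes NOXA, by 0.49 and TNFRSF10B, a TRAIL receptor, by 0.37. FAS and TNFRSF19 passed in every alternative in which they were tested, and PMAIP1 and TNFRSF10B did not.

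Few proliferation genes passed, 3.12% in replication and 3.57% in mitosis, beside 3.79% risen and 5.18% fallen over all genes tested. Of 32 replication genes MCM5, a helicase subunit, fell (433 to 310, −0.46) and none rose, and of 28 mitotic genes CDC20 rose (0.34) and none fell. Their medians were −0.02 and 0.09. The unfolded protein response had 2 rises in 33, DDIT3 (0.28) and CRELD2 (0.19). Of 30 interferon and antigen presentation genes HLA-DMB, ISG20 (−0.33) and PSMB8 (−0.27) fell and CD74 rose on its brightest probe set alone, with a median of −0.15. Among 28 chromatin genes SMARCA2, a SWI/SNF ATPase (785 to 569, −0.45), HDAC1 and JARID2 (−0.35) fell and none rose. Of 34 genes of sugar metabolism 3 rose, among them PGM2L1, and 3 fell, among them PFKP, a phosphofructokinase (−0.32). Of 18 ion channels and pumps KCNS3, KCNH8 and the calcium channel subunit CACNA2D1 (−0.43) fell. Of 14 prostaglandin genes HPGD, which inactivates prostaglandins, rose (0.23) and PTGER4 fell. The share called was 6.06% in the unfolded protein response, 13.3% in the interferon list and 10.7% in the chromatin list. In the sugar, ion channel and prostaglandin lists it was 17.6%, 16.7% and 14.3%.

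Of the 123 list members chosen by the naming rule, 53 that rose and 70 that fell, 9 and 26 passed in every alternative in which they were tested. With the GAPDH ratio as a covariate 43 passed, with the ACTB ratio 69 and with only the 6 arrays in the fit 69.

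The same knockdown with EtOH used 6 other arrays. Both comparisons came from 1 fit with a common spread and filter, so their calls are not wholly independent. There 690 genes rose (5.37%) and 754 fell (5.87%), or 393 and 1167 with arrays centred on their median. Of the genes that rose with DHT 255 also rose with EtOH, which is 52.4% of the DHT list and 37% of the EtOH list. Of those that fell 386 also fell, 58% of the DHT list and 51.2% of the EtOH list. The sign with EtOH was the same for 91.2% of genes that rose and 92.6% of genes that fell with DHT, and 3 and 4 genes passed in the opposite direction. EML6 fell by 1.99 with EtOH, S100P by 1.88, SLPI by 1.57, REG4 by 1.23 and INSM1 by 1.18, and none of these 5 passed the test of the difference between DHT and EtOH.

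A difference of the knockdown effect between DHT and EtOH, tested as an interaction, passed for 37 genes (0.288%), and 1401 had an unadjusted p below 0.05. The effect with DHT minus that with EtOH was lower for 29 and higher for 8. Of the 37, 24 fell with DHT, and of these 9 fell with EtOH too, 11 did not pass with EtOH and 4 rose with EtOH. These calls depended on single arrays. Without siControl EtOH array B limma called 0 genes (1322 at an unadjusted p below 0.05), without siERG DHT array C 74, and without any other of the 12 arrays 4 to 15. Single genes passed in 4 to 22 of their 24 to 26 alternatives, with 1 sign throughout for all 37.

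ST6GAL1 had the most stable interaction among the genes already described, passing in 22 of 25 alternatives. With EtOH it read 90.9, 84.5 and 83.7 in siControl arrays and 44.1, 40.5 and 43.5 in siERG arrays. The siControl arrays were thus well below those with DHT, while the siERG arrays were close to theirs. Its knockdown effect was −0.80 with EtOH and −1.51 with DHT, a difference of −0.71 ± 0.069 (adjusted p = 0.00934). ST3GAL1 read 945, 752 and 808 in siControl and 697, 701 and 713 in siERG arrays with EtOH. Its effect there did not pass (−0.24, adjusted p = 0.174), and the difference was −0.97 ± 0.143 (adjusted p = 0.0314). In siControl cells DHT against EtOH gave 0.89 for ST6GAL1 and 1.09 for ST3GAL1, from a comparison that shares the siControl DHT arrays. RGS17 (−0.59) and KCNS3 (−0.43) also differed, and both were lower with DHT in siControl cells (−1.24 and −0.34).

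Of the genes with the highest interactions, MYC did not pass with DHT. It read 1413, 1623 and 1440 in siControl and 1528, 1615 and 1538 in siERG arrays with DHT (0.07, adjusted p = 0.773). With EtOH its level was 7454, 7434 and 7309 in siControl and 4615, 3165 and 3892 in siERG arrays (−0.94). NEO1, a netrin receptor, rose with DHT from 556, 546 and 576 to 893, 867 and 823 (0.61, adjusted p = 5.82e-05) and did not pass with EtOH (0.06). SRM, spermidine synthase, rose with DHT from 1825, 1777 and 1812 to 2356, 2318 and 2278 (0.36), against −0.15 with EtOH, which did not pass. In both of these the siERG arrays with DHT were the highest of the 12.

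**Figure D5:**
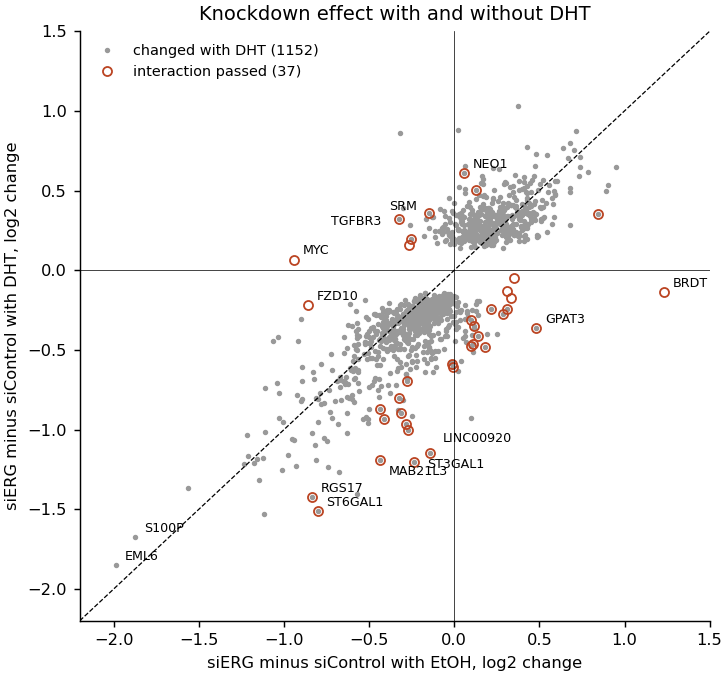
Log2 change, siERG minus siControl, with DHT (vertical) against EtOH (horizontal) for the 1152 genes changed with DHT (grey) and the 37 genes that passed the interaction (open orange circles), from arrays that are not shared, with a dashed line of equal change. Most grey points lie in the quadrants of equal sign, ST6GAL1 and RGS17 lie below the line, and MYC lies near 0 with DHT at −0.94 with EtOH.

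In LNCaP with DHT, shETV1 against its control changed 665 of 12823 genes (5.19%), of which 344 rose and 321 fell. Of the genes that rose in VCaP after siERG 455 were tested in LNCaP, where 25 rose and 38 fell, and of those that fell 565 were tested, where 22 rose and 59 fell. The difference between the knockdown effects passed for 923 of 12305 genes (7.5%). S100P (0.21), EML6 (−0.21), HLA-DMB (0.10), ST6GAL1 (−0.05) and RGS17 (−0.17) did not pass after shETV1, and for each the difference from siERG passed. Line, target and knockdown reagent differ at once between these comparisons and cannot be told apart.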

How the data were processed

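Each array of the HG-U133 Plus 2.0 type yielded 1 deposited intensity for each of 54675 probe sets, and for the scaling the authors' method is not given here in any label. The probe table paired 42898 of them with a gene. After removal of 1801 that named several genes, 41097 served 19775 genes. Each intensity was turned into log2(intensity + 16), which understates changes of dim genes. For each gene the brightest probe set on average over the 24 arrays was kept. Genes entered the test if they exceeded the median of the array on 3 or more of 12 VCaP arrays, as 12840 did. The median intensity was 47.6 to 53.2 per VCaP array, and 3 arrays per group limit the precision.

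Changes were fitted with limma 3.58.1 in R 4.3.3, with 4 VCaP groups of 3 arrays in 1 fit and a common spread. All limma tests are two-sided, adjusted p-values are Benjamini-Hochberg over all genes tested, and "rose", "fell" or "passed" means an adjusted p below 0.05. The difference between lines came from 1 fit of all 24 arrays. The scripts were checked on simulated data. The design text calls the arrays biological replicates, so p-values measure the spread between these samples.

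The arrays, genes and 37 lists were chosen with earlier results of these data known, and the lists were written from general knowledge. Genes are named when they are ERG, TMPRSS2 or KLK3 (a further gene of this rule is not reported here), among the 15 highest or 15 lowest changes that passed without overlap of arrays, among up to 3 risen and 3 fallen members of a list with the smallest adjusted p, or among the 5 highest and 5 lowest interactions or line differences. Further list members and probe sets were named after their values were seen. Alternatives covered the choice of probe set, the filter, scaling, pseudocount, variance model, array weights, the arrays in the fit, a replicate block, RNA quality ratios as covariates and each array left out in turn.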

Additional observations from a re-analysis of the deposited data

Results flagged for a closer look

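For 10 genes the siERG effect differed between DHT and EtOH by the interaction test of limma, and they are the 5 highest and 5 lowest of the 37 that passed. The effect with DHT minus that with EtOH was 1.01 ± 0.156 for MYC (adjusted p = 0.0342), 0.64 ± 0.088 for TGFBR3 (adjusted p = 0.0216), 0.64 for FZD10, 0.55 for NEO1 and 0.51 for SRM. MYC and FZD10 fell with EtOH and did not pass with DHT, TGFBR3, a TGF-beta co-receptor, fell with EtOH (−0.32) and rose with DHT (0.32), and NEO1 and SRM rose with DHT and did not pass with EtOH. FZD10, a Wnt receptor, had a mean of 6.40 in siControl and 3.19 in siERG arrays with DHT, where a fall has little room. The difference was −1.37 ± 0.233 for BRDT (adjusted p = 0.0470), a bromodomain gene of the testis, −1.01 for LINC00920, −0.97 for ST3GAL1, −0.85 for GPAT3, a glycerol-phosphate acyltransferase (adjusted p = 0.0216), and −0.76 for MAB21L3. BRDT rose with EtOH (1.23) and did not pass with DHT (−0.14). GPAT3 rose with EtOH (0.48) and fell with DHT (−0.36). LINC00920 read 96.5, 129 and 109 in siControl and 38.4, 40.5 and 44.9 in siERG arrays with DHT, and did not pass with EtOH. None of these 10 calls held without siControl EtOH array B, and each kept its sign in every alternative in which it was tested.

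For another 10 genes the effect of shETV1 in LNCaP minus that of siERG in VCaP, both with DHT, passed by the test of that difference with the 5 highest and 5 lowest values. It was 2.03 ± 0.113 for BCHE, butyrylcholinesterase (adjusted p = 1.88e-09), 1.88 for S100P, 1.65 for EML6, 1.63 for HLA-DMB and 1.46 for ST6GAL1. It was −1.64 ± 0.114 for GRIN3A, a glutamate receptor subunit (adjusted p = 3.08e-08), −1.51 for C5orf46, −1.41 for COL12A1, a collagen, −1.33 for CRISPLD1 and −1.27 for PCGEM1, a long non-coding RNA of prostate. BCHE rose after shETV1 (1.65) and fell after siERG (−0.37). GRIN3A, C5orf46, COL12A1, CRISPLD1 and PCGEM1 fell after shETV1 (−1.36, −0.48, −0.92, −1.14 and −0.94) and rose after siERG (0.29, 1.03, 0.49, 0.20 and 0.33).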

How the results depend on the processing

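Among the alternatives to the main setting, no gene called with DHT turned direction. Counts of risen and fallen genes with DHT (487 and 665) were 815 and 1116 with probe sets one by one, 1209 and 1004 with array weights, 183 and 344 with only the 6 arrays and 66 and 220 with the GAPDH ratio as a covariate. Risen genes were 296 with no filter, and fallen genes 287 with the ACTB ratio. Leaving out 1 array gave 230 to 922 risen and 409 to 656 fallen. With EtOH (690 and 754) they were 1420 and 1258, 1052 and 1183 with array weights, 112 and 163 with the GAPDH ratio and 393 and 1167 with arrays centred on their median. Fallen genes with EtOH were 494 with no filter, and leaving out 1 array gave 365 to 928 and 429 to 1033. The 37 interactions became 17 with averaged probe sets, 19 without _x_at and _s_at probe sets, 5 with probe sets one by one, 8 with no filter, 21 with centred arrays, 157 with array weights, 8 with the ACTB ratio, 96 in 1 fit of all 24 arrays and 0 to 74 with 1 array left out. They became 0 with the GAPDH ratio in limma (742 at an unadjusted p below 0.05). The cause of these shifts was not tested.

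The letters A, B and C showed no sign of pairing in the values. Correlations of deviations between arrays of 1 letter ran from −0.117 to 0.112, and those of unlike letters from −0.137 to 0.131. They cannot show how the samples were handled. With a replicate block 375 genes rose and 555 fell with DHT, and limma called 0 interactions (1297 at an unadjusted p below 0.05). The risen share of calls with DHT, 42.3%, was 41.1% with quantile normalization and 37.4% with centred arrays. It was 54.6% with array weights, 54.6% with the ACTB ratio, 23.1% with the GAPDH ratio, and 31.9% and 58.4% without siERG DHT arrays B and C. Dim genes limit what can be read, since intensity near or below 16 is dominated by the value added before the log.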

Other observations

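The 2-fold falls outside the 15 lowest were named after their values were seen. F3, tissue factor, which starts coagulation, fell from 259 ± 4.13 (SD, n = 3) in siControl to 107 ± 3.93 in siERG arrays with DHT (−1.16). GPX2, an epithelial glutathione peroxidase, fell from 160 to 63.7 (−1.18), FAM3D, a secreted gut protein, from 161 to 63.3 (−1.19), and LYZ from 408 to 192 (−1.03). TGM4, the prostate transglutaminase, fell from 512 to 219 (−1.17). SP6, a transcription factor of the SP family, went from 129 ± 0.724 to 47.5 ± 1.11 (−1.19), with little spread in either group.

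PAPSS2, which makes the sulfate donor PAPS, fell from 404 ± 4.50 to 191 ± 5.06 (−1.02), and TPST2, which sulfates tyrosines of secreted proteins, from 204 to 93.6 (−1.005). SYTL5, a Rab-binding protein of vesicle transport, fell from 251 to 111 (−1.06), SLC60A1 from 467 to 216 (−1.05), SAMD13 from 974 to 456 (−1.07) and TMEM178A from 218 to 99.0 (−1.02). The siERG effect on PAPSS2, SYTL5, SLC60A1 and SAMD13 was measured at a lower control level than with EtOH, where siControl means were 898, 430, 1429 and 1236.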
